A study of Mus musculus with 10 samples.

Results

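The end points of neocortical neurogenesis were compared: newborn neocortex (P0) against neocortex at the onset of neuron production (E12.5, by the embryonic day), by ribosome profiling (Ribo-seq), which counts short mRNA fragments protected by translating ribosomes. All genes with 32 or more footprints summed over the libraries of a stage were taken, which gave 13484 of the 22373 genes in the count table. Each stage had 2 libraries, and each library came from a pool of neocortices of wild-type CD-1 mice of both sexes, with no treatment in either group. The 6 libraries of the 3 stages between (E14, E15.5 and E17) entered the fit, so that all 5 stages shared an estimate of the spread. The replicates were pools, so p-values measured the spread between pools, as shared over the 5 stages. The P0 libraries lay further apart than the E12.5 libraries, so the shared spread can understate that at P0 and make p-values too small. The comparison addressed how the set of translated mRNAs differed between the start and the end of neuron production.

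Radial glia, the neural stem cells that line the ventricle and divide there, make up most of the neocortical wall at E12.5. Radial glia give rise to neurons directly or through intermediate progenitors, first to the subcortically projecting neurons of the deep layers and then to the intracortically projecting neurons of the upper layers. Around birth, cortical neurons extend axons and form synapses, and progenitors turn to making glia. A footprint count depends on the amount of an mRNA and on how many ribosomes it carries, and in whole tissue fewer cells of a type and less RNA per cell cannot be told apart.

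Defining genes of the neocortex were present, with Pax6 at 202 and 202 CPM (counts scaled to a common library size) at E12.5 and Tbr1, a factor of early-born neurons, at 103 and 73.96 CPM at P0. The libraries did not stand on equal footing. E12.5 libraries held 21378041 and 33107909 footprints and P0 libraries 7544404 and 35685736. Among 4559 genes averaging 500 counts or more, the log2 difference between the P0 libraries had an SD of 0.54, against 0.22 between the E12.5 libraries. The P0 libraries were more than 2-fold apart for 1922 genes (14.3%) and the E12.5 libraries for 773 (5.73%). Values without each P0 library are therefore given where they change a result. A fit that leaves out 1 library of a stage holds no spread of its own for that stage. Calls in such a fit rest on the spread of the other stages, so they do not test the spread at P0 or E12.5. Footprints of replication-dependent histone genes took 34.0% and 38.5% of counts at E12.5 and 9.83% and 6.32% at P0. With scaling by TMM (trimmed mean of M-values) the median log2 fold change of all genes was -0.01, and with total counts only it was 0.51, so all changes given are relative to the bulk of genes.

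E12.5 replicate 1 and P0 replicate 2 also held footprints of genes of the intestinal lining, which neocortex should lack. A list of 33 intestinal epithelium genes, drawn up after the counts were seen, had 27 members past the footprint minimum. Summed over these 27 genes, counts were 4053 and 72 in the E12.5 libraries, 9 and 14841 in the P0 libraries, and 51 to 103 in the 6 other libraries. Fabp2, an intestinal fatty acid binding protein, had 496 and 0 counts at E12.5 and 0 and 1646 at P0. Sis, the sucrase-isomaltase of the brush border, had 99 and 0 counts at E12.5 and 0 and 371 at P0. Of the 27 genes, 26 were more than 4-fold higher in both of these libraries than in the other library of the stage, and 23 were at 0 counts in P0 replicate 1. Over all genes tested, 256 (1.90%) had this pattern, against 10 with the mirrored pattern. These 256 genes held 0.0955% of the counts of E12.5 replicate 1 and 0.199% of those of P0 replicate 2. Only 6 of the 256 were called, all higher. Of the 256, 1 was on another list used here, the pericyte marker Anpep. A fit with E12.5 replicate 2 and P0 replicate 1 as the only end-stage libraries called 8178 genes, of which 7015 were called in the same direction with all libraries. Each end stage then had 1 library, which was assumed to vary like those of E14, E15.5 and E17, so this fit held no spread of its own for E12.5 or P0. The part of the intestinal footprints in the results was not tested beyond it. The likeness of E12.5 replicate 1 and P0 replicate 2 was wider than these genes. Over 4559 genes averaging 500 counts or more, the difference of replicate 1 from replicate 2 correlated at -0.63 between E12.5 and P0. The cause was not tested.

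Calls required a limma-voom p under 0.05 after Benjamini-Hochberg adjustment over all genes tested, and a difference of at least 25% upwards or the same factor downwards. Between E12.5 and P0, 8371 of the 13484 genes were called (62.1%), with 4058 higher (30.1%) and 4313 lower (32%) at P0. Changes of at least 2-fold were called for 2607 higher and 2611 lower genes (38.7% of genes tested), of at least 4-fold for 1216 and 1172, and of at least 16-fold for 255 and 160. Both P0 libraries lay above both E12.5 libraries in 36.4% of genes and below them in 38.8%, or either way in 75.2%, and 8299 of the called genes (99.1%) had end-stage values that did not overlap. Of the called genes, 6611 were called in the same direction when either P0 library was left out in turn, 3440 higher and 3171 lower. A fit of the 4 end-stage libraries alone called 6009 genes, 5996 of them in the same direction. Scaling by total counts moved the split to 6446 higher and 2506 lower, so that 72.0% of calls were higher in place of 48.5%.

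**Figure D1:**
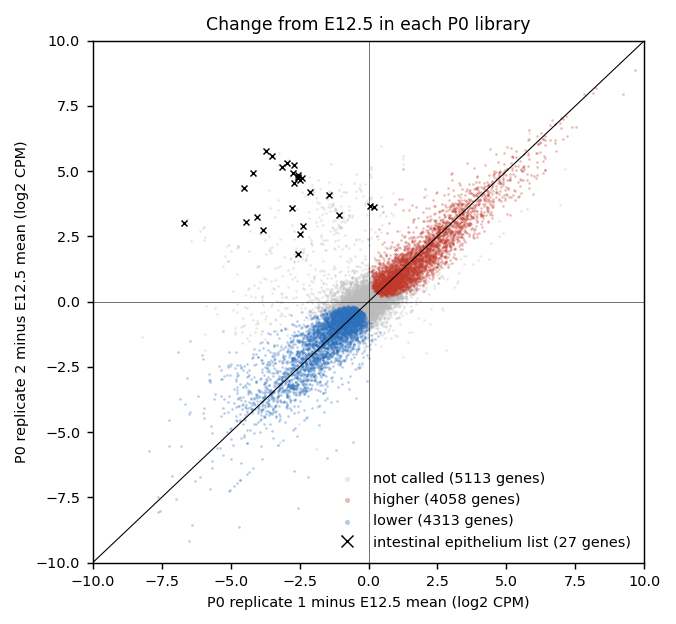
Log2 difference in CPM of P0 replicate 1 (x axis) and P0 replicate 2 (y axis) from the E12.5 mean, 1 point a gene, coloured by call, with the diagonal as equality and 27 intestinal epithelium genes as crosses. The 4058 higher and 4313 lower genes follow the diagonal, while most of the intestinal genes lie above it on the left, low in P0 replicate 1 and high in P0 replicate 2.

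Part of these calls fell on genes that reached the footprint minimum at a single end stage. In all, 11574 genes reached 32 footprints at both end stages, and 3323 of these were higher and 3711 lower at P0. A further 658 genes reached 32 footprints only at E12.5 of the end stages, with 572 called lower. Another 1057 did so only at P0, with 725 called higher. In both groups 0 genes were called the other way. The direction of these calls was largely set by the end stage at which the minimum was reached, so it is no result of its own. The remaining 195 reached it only at a stage between the ends, and 10 of these were called higher and 30 lower. At the footprint minimum itself, 52 genes had a highest stage sum of exactly 32, with 24 called, and 48 had exactly 31 and were left out.

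The genes with the steepest rises were neuronal and glial. Scrg1 (ENSMUSG00000031610), first described as a gene responsive to scrapie, had 0 counts in both E12.5 libraries and 170 and 451 at P0. Set against the 3 summed counts that a count of 0 allows, it was at least 182-fold higher at P0. Nwd2 (ENSMUSG00000090061) rose from 2 summed counts at E12.5 to 1010 at P0, a ratio of 444 with a 95% counting interval of 123 to 3671. Both genes thus had next to no footprints at E12.5, which leaves the size of their rise imprecise. Nrgn (ENSMUSG00000053310), neurogranin, a postsynaptic protein that binds calmodulin, was read at 2.37 and 2.39 CPM at E12.5 and 318 and 306 at P0, a 129.8-fold rise (log2 change of 7.02 with an SE of 0.25, adjusted p = 5.02e-07 by limma-voom). Caln1 (ENSMUSG00000060371), a neuronal calcium-binding protein, went from 0.660 and 0.449 to 62.2 and 64.03 CPM (6.86, SE 0.29, adjusted p = 7.52e-07 by limma-voom). In these genes the libraries of a stage lay close together and far from those of the other stage. Ptk2b (ENSMUSG00000059456), a calcium-responsive tyrosine kinase, rose from 0.495 and 0.262 to 36.2 and 41.8 CPM (6.77, SE 0.39, adjusted p = 2.82e-06 by limma-voom). Fam19a1 (ENSMUSG00000059187), which codes for a small secreted protein of the brain, rose from 0.385 and 0 to 8.70 and 11.1 CPM (7.20, SE 1.07, adjusted p = 0.000512 by limma-voom). Olig1 (ENSMUSG00000046160), a transcription factor of the oligodendrocyte lineage, rose from 0.275 and 0.187 to 46.3 and 25.96 CPM (7.12, SE 0.93, adjusted p = 0.000248 by limma-voom), and its P0 libraries were further apart than those of the neuronal genes.

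The steepest falls included genes of early progenitors, embryonic blood and tissue next to the neocortex. Hmga2 (ENSMUSG00000056758), a chromatin protein of young neural stem cells, was read at 38.6 and 30.8 CPM at E12.5 and 0.326 and 0.0477 at P0 (log2 change of -8.61 with an SE of 1.31, adjusted p = 0.000573 by limma-voom). Without P0 replicate 2 the log2 fold change of Hmga2 was -6.50. Nhlh1 (ENSMUSG00000051251), a transcription factor of newly committed neurons, fell from 21.8 and 26.4 to 0.870 and 0.0477 CPM (-7.91, SE 0.84, adjusted p = 7.46e-05 by limma-voom), and its change was -4.71 without P0 replicate 2. Both genes were below their E12.5 values in each P0 library, with the lower value in replicate 2. The embryonic globins Hba-x (ENSMUSG00000055609) and Hbb-y (ENSMUSG00000052187), the oxygen carriers of primitive red blood cells, were at 199.9 and 206 and at 1271 and 1365 CPM at E12.5. At P0 Hba-x was at 0.979 and 0.740 CPM (-8.003, SE 0.36, adjusted p = 1e-06 by limma-voom) and Hbb-y at 6.85 and 5.08 CPM (-7.87, SE 0.21, adjusted p = 3.74e-07 by limma-voom). Hbb-bh1 (ENSMUSG00000052217), another embryonic globin, fell from 23.98 and 28.8 to 0.435 and 0.167 CPM (-6.94, SE 0.56, adjusted p = 1.66e-05 by limma-voom). Globin genes are close copies of each other, so reads may be shared between them. Crabp2 (ENSMUSG00000004885), which carries retinoic acid in the cell, fell from 39.8 and 36.8 to 0.217 and 0.358 CPM (-6.77, SE 0.42, adjusted p = 3.73e-06 by limma-voom). Col3a1 (ENSMUSG00000026043), a fibrillar collagen of connective tissue, fell from 23.98 and 25.95 to 0.435 and 0.286 CPM (-6.27, SE 0.45, adjusted p = 8.87e-06 by limma-voom). Kcne2 (ENSMUSG00000039672), a potassium channel subunit of the choroid plexus, had 482 summed counts at E12.5 and 2 at P0, a ratio of 274 with a counting interval of 75.5 to 2270, and its call was lost without P0 replicate 2 (limma-voom adjusted p 0.102).

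By absolute level, the largest rises were mostly cytoskeletal. Stmn1, a protein that destabilises microtubules, was read at 5057 and 4494 CPM at E12.5 and 9281 and 13875 at P0 (log2 change of 1.24 with an SE of 0.17, adjusted p = 0.000328 by limma-voom). Actg1 and Actb, the cytoplasmic actins, rose from 5066 and 5982 to 10699 and 10509.9 CPM (0.95, SE 0.11, adjusted p = 9.69e-05 by limma-voom) and from 5217 and 6052 to 10880.3 and 7981 CPM (0.74, SE 0.15, adjusted p = 0.00275 by limma-voom). Tuba1a, the main alpha tubulin of young neurons, rose from 2276 and 2549 to 8429 and 6028 CPM (1.58, SE 0.16, adjusted p = 6.49e-05 by limma-voom), and Gng2, a G protein gamma subunit, from 1411 and 1429 to 6065 and 6169 CPM (2.11, SE 0.09, adjusted p = 9.33e-07 by limma-voom). None of these overlapped between the stages, but actin and tubulin genes resemble each other closely and reads may be shared among them. The largest losses in CPM, replication-dependent histone genes aside, included a histone variant and RNA-binding and nucleosome-binding proteins. H2afj, an H2A histone variant, fell from 4529.9 and 5002 to 582 and 579 CPM (-3.04, SE 0.10, adjusted p = 4.8e-07 by limma-voom). Hnrnpa2b1, an RNA-binding protein of splicing and transport, fell from 7609 and 5991 to 1686 and 3487 CPM (-1.49, SE 0.29, adjusted p = 0.00203 by limma-voom), and Hmgn2, a nucleosome-binding protein, from 6597 and 4799 to 1109.8 and 2332 CPM (-1.82, SE 0.31, adjusted p = 0.00102 by limma-voom). In both genes P0 replicate 2 was more than 2-fold above P0 replicate 1 and below both E12.5 libraries. The 2 genes with the largest losses have no symbol in the names used here. Replication-dependent histone genes were set aside by symbol, so genes without a symbol could not be. Whether these 2 are histone genes was not tested. ENSMUSG00000096807 fell from 7884 and 9595 to 1298 and 856 CPM (-3.04, SE 0.19, adjusted p = 4.56e-06 by limma-voom) and ENSMUSG00000064168 from 8169 and 8739.7 to 1384 and 894 (-2.92, SE 0.19, adjusted p = 5.52e-06 by limma-voom).

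**Figure D2:**
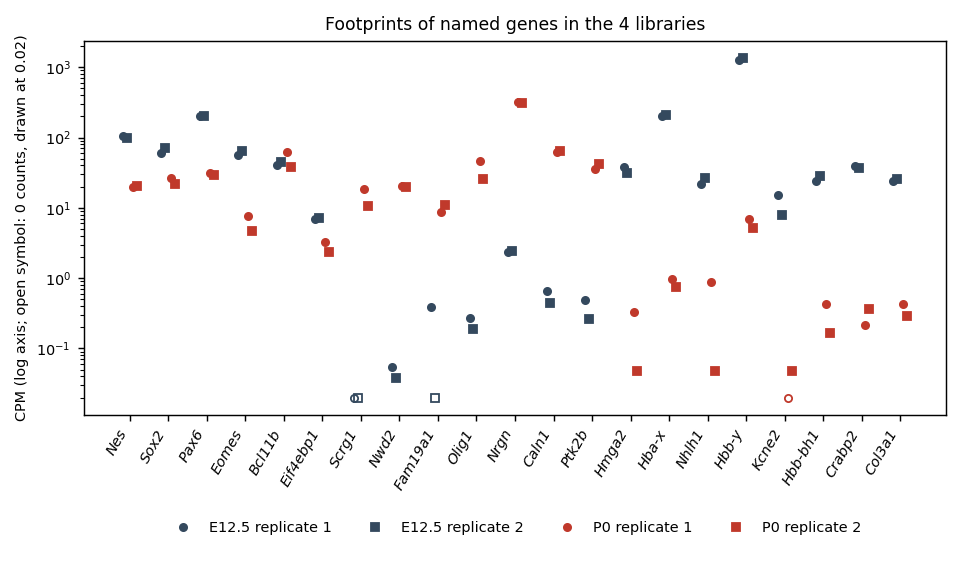
CPM on a log axis in each E12.5 and P0 library for followed markers and genes with the steepest rises and falls, 1 column a gene, with circles for replicate 1, squares for replicate 2 and open symbols for 0 counts. Nrgn sits near 2 CPM in both E12.5 libraries and above 300 CPM in both P0 libraries, and Bcl11b is a gene whose stages overlap.

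Genes of radial glia fell. Of 25 members measured, 20 fell and 2 rose, with a median log2 fold change of -2.46 (quartiles -2.96 to -1.14) against -0.01 for all genes. The 80% called lower stood beside 32% of all genes. Nes, nestin, the intermediate filament of neural stem cells, was read at 106 and 99.3 CPM at E12.5 and 19.5 and 20.4 at P0, a 5.13-fold fall (log2 change of -2.36 with an SE of 0.11, adjusted p = 9.8e-07 by limma-voom). Pax6, a transcription factor that specifies dorsal radial glia, went from 202 and 202 to 31.8 and 29.5 CPM (-2.73, SE 0.11, adjusted p = 6.2e-07 by limma-voom). Sox2, a transcription factor that maintains the stem cell state, went from 59.95 and 70.98 to 26.3 and 21.6 CPM (-1.48, SE 0.13, adjusted p = 2.91e-05 by limma-voom). In all 3 genes both P0 libraries lay below both E12.5 libraries. Prom1, prominin, a membrane protein of the apical surface, fell from 116 and 106 to 4.68 and 4.32 CPM (-4.64, SE 0.19, adjusted p = 7.09e-07 by limma-voom). The members that rose are also made by astrocytes, and the part of astrocytes in their rise was not tested. Slc1a3, a glutamate transporter, rose from 26.7 and 29.1 to 48.3 and 41.7 CPM (0.67, SE 0.12, adjusted p = 0.00111 by limma-voom). Fabp7, a brain fatty acid binding protein, rose from 1039 and 899 to 1208 and 1764 CPM (0.59, SE 0.17, adjusted p = 0.0163 by limma-voom), and the call was lost without P0 replicate 2 (log2 fold change 0.32) and without E12.5 replicate 2 (0.48). Its stage mean was highest at E17, at 2054 CPM, against 1486 at P0.

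Genes of intermediate progenitors fell too. Of 20 measured, 16 fell and none rose, with a median log2 fold change of -3.16, which was -2.39 from P0 replicate 1 and -3.27 from P0 replicate 2. Eomes, also called Tbr2, the transcription factor that defines these cells, was read at 56.3 and 64.2 CPM at E12.5 and 7.61 and 4.73 at P0 (log2 change of -3.45 with an SE of 0.20, adjusted p = 3.15e-06 by limma-voom). Neurog1, a proneural transcription factor, fell from 12.3 and 15.6 to 0.217 and 0.191 CPM (-6.03, SE 0.56, adjusted p = 3.34e-05 by limma-voom). Leaving out P0 replicate 1 or P0 replicate 2 left 17 or 15 members called lower, with 1 called higher in each case. With all libraries, the 80% called lower stood beside 32% of all genes.

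Every gene on the lists for DNA replication and mitosis fell. All 46 DNA replication genes were called lower, with a median log2 fold change of -2.74, and all 52 mitosis genes, with a median of -3.73. The share of calls over all genes was 32% in this direction. Leaving out either P0 library left every member of both lists called lower. Mitosis genes took 0.418% and 0.431% of counts outside replication-dependent histone genes at E12.5 and 0.0341% and 0.0328% at P0. Replication genes took 0.404% and 0.422% at E12.5 and 0.0810% and 0.0804% at P0. Uhrf1, which carries DNA methylation through replication, fell from 154 and 166 to 6.31 and 8.11 CPM (log2 change of -4.41 with an SE of 0.16, adjusted p = 5.27e-07 by limma-voom). Cdc6, a licensing factor of replication origins, fell from 23.9 and 27.7 to 1.31 and 1.41 CPM (-4.20, SE 0.23, adjusted p = 2.07e-06 by limma-voom). Bub1b, a kinase-like protein of the spindle checkpoint, fell from 15.1 and 17.6 to 0.544 and 0.668 CPM (-4.62, SE 0.22, adjusted p = 1.19e-06 by limma-voom), and Kif15, a spindle kinesin, from 25.5 and 23.5 to 0.653 and 1.29 CPM (-4.38, SE 0.22, adjusted p = 1.42e-06 by limma-voom). None of these 4 genes had overlapping stages.

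Both lists moved as blocks, so their promoters are shown. E2F factors drive genes of the G1 to S transition, and genes of G2 and mitosis often carry a cell cycle homology region (CHR) bound by the DREAM and MuvB complexes. RefSeq promoters on GRCm38.p6, from 250 bases before to 50 after the start site, were found for 37 of the 46 replication genes and 45 of the 52 mitosis genes. The E2F letters searched were TTGGCGC or TTCGCGC, and the CHR letters TTTGAA, each on both strands. A promoter with several matches, overlapping or not, was counted once. E2F letters stood in 13 of the 37 replication promoters (35.1%) and 9 of the 45 mitosis promoters (20%), against 4.47% of all 27025 promoters. CHR letters stood in 34 of the 45 mitosis promoters (75.6%) and 5 of the 37 replication promoters (13.5%), against 20.2% of all promoters. The windows printed are 4 for E2F and then 4 for CHR, taken in order of the steepest falls on each list among genes that held its motif. Matches whose window was not wholly upstream of the start site, and genes on a chromosome set aside, were passed over for printing. Genes with steeper falls may thus be missing. Windows are printed along the strand of the gene with the motif in capitals on either strand. A match is a description of letters and says nothing of binding.
Uhrf1: ccgagtcgggtTTCGCGCgcccaggcgtct
Orc1: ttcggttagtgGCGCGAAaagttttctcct
Mcm5: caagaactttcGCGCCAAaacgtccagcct
Pola1: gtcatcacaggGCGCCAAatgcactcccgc
Kif15: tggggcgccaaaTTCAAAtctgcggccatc
Ube2c: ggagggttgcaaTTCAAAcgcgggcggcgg
Ncapg: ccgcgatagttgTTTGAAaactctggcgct
Ect2: ccgtttaccggaTTTGAAacacactcacaa
The E2F windows lie upstream of Uhrf1 at chr17:56304118-56304147 (plus strand), Orc1 at chr4:108579416-108579445 (plus), the helicase subunit Mcm5 at chr8:75109349-75109378 (plus) and the polymerase subunit Pola1 at chrX:93632275-93632304 (minus). The CHR windows lie upstream of Kif15 at chr9:122951050-122951079 (plus), the ubiquitin-conjugating enzyme Ube2c at chr2:164769888-164769917 (plus), the condensin subunit Ncapg at chr5:45669883-45669912 (plus) and Ect2, which places the cleavage furrow, at chr3:27153975-27154004 (minus). The CHR letters ended 13 bases before the start site in Kif15, 23 in Ube2c, 24 in Ncapg and 108 in Ect2.

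Replication-dependent histone genes, which are expressed in S phase, all fell. All 66 measured were called lower, with a median log2 fold change of -2.87, or -2.38 from P0 replicate 1 and -3.22 from P0 replicate 2. Over all genes, 32% were called lower. Hist1h1a, a linker histone, fell from 916 and 972 to 84.6 and 72.6 CPM (log2 change of -3.60 with an SE of 0.11, adjusted p = 4.05e-07 by limma-voom), and Hist1h1b, another, from 1405 and 1345 to 127 and 105 (-3.59, SE 0.11, adjusted p = 4.46e-07 by limma-voom). Of 9 replication-independent histone genes 6 fell and none rose, with a median of -1.60. H2afx, the variant that is phosphorylated at DNA breaks, fell from 2859 and 3044 to 420.1 and 367 CPM (-2.91, SE 0.11, adjusted p = 5.38e-07 by limma-voom), and H2afv, an H2A.Z variant, from 532 and 523 to 90.9 and 81.1 (-2.62, SE 0.10, adjusted p = 5.27e-07 by limma-voom). Histone genes are near-identical copies, so the split of reads between single genes is uncertain.

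**Figure D3:**
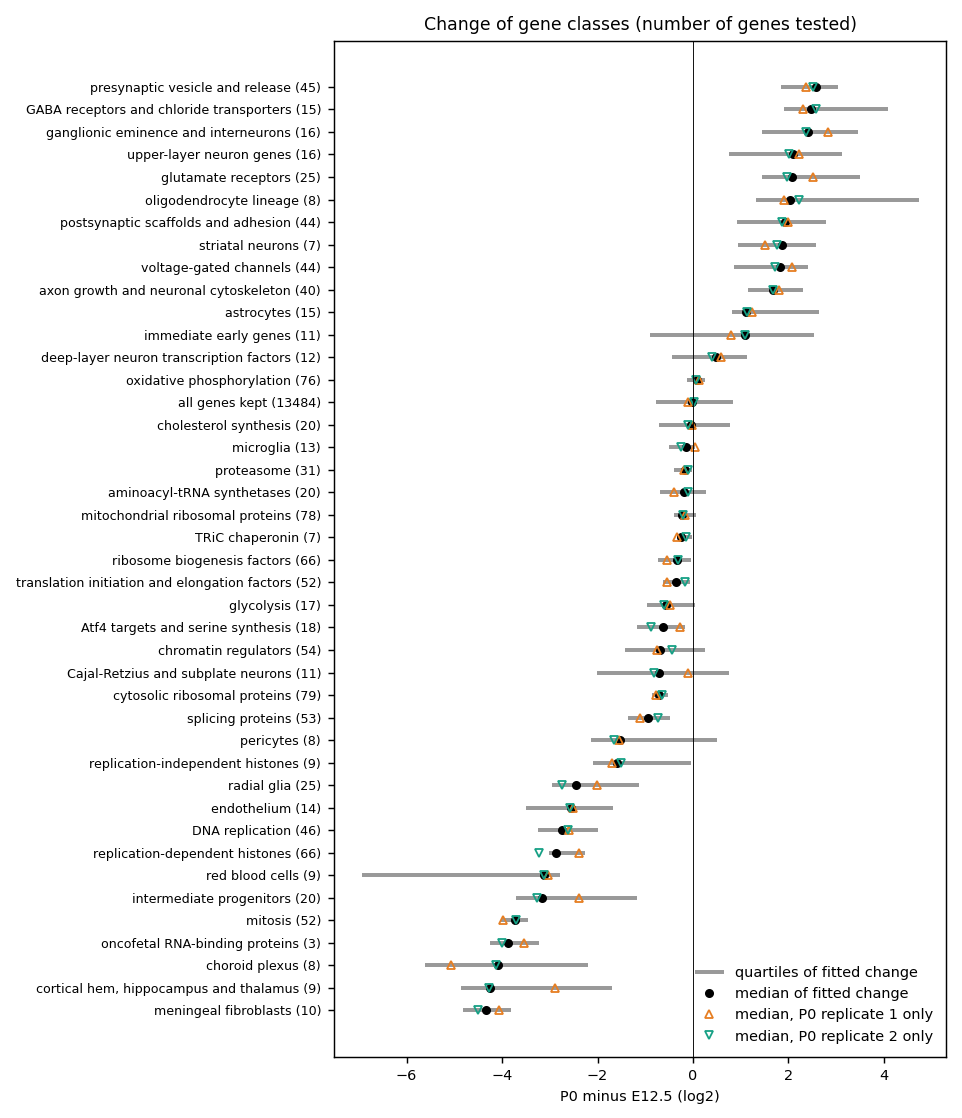
Median log2 fold change from E12.5 to P0 of each gene list (black points) with its quartiles (grey bars) and the medians from each P0 library alone (triangles), ordered by median, with 0 as no change. Mitosis (median -3.73) and DNA replication (-2.74) lie left of 0, presynaptic genes (median 2.58) lie furthest right, and the triangles part most for lists such as choroid plexus and cortical hem.

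Among neuronal identity genes, upper-layer genes rose and deep-layer transcription factors were mixed. Of 16 upper-layer genes 13 rose and 1 fell, with a median log2 fold change of 2.09, and their share of footprints outside histone genes went from 0.0526% and 0.0545% to 0.526% and 0.563%. Mef2c, an activity-regulated transcription factor, was read at 124 and 102 CPM at E12.5 and 2337 and 3216 at P0, a 24.4-fold rise (log2 change of 4.61 with an SE of 0.16, adjusted p = 4.84e-07 by limma-voom). Its P0 libraries were both more than 10 times above its E12.5 libraries. The list summed to 408 and 415 CPM at E12.5 and 3889 and 4492 at P0, so Mef2c made up most of the list's footprints at P0. The share of the list is therefore largely that of this gene. Of 12 deep-layer factors 6 rose and 3 fell, with a median of 0.48. These shares, 50% higher and 25% lower, stood beside 30.1% and 32% of all genes. Bcl11b, also called Ctip2, a factor of corticospinal neurons, was read at 40.4 and 44.4 CPM at E12.5 and 62.5 and 38.7 at P0, so the stages overlapped (0.18, SE 0.21, adjusted p = 0.486 by limma-voom). When P0 replicate 1 was left out the value for Bcl11b was -0.13, and with replicate 2 left out 0.56. With E12.5 replicate 2 and P0 replicate 1 as the only end-stage libraries it was 0.49. These fits held no spread of their own for an end stage, so for Bcl11b only their values are given. With total counts and all libraries the value was 0.70 and the gene was called higher. Ldb2, a cofactor of LIM proteins, rose from 10.8 and 10.4 to 139 and 188 CPM (3.94, SE 0.17, adjusted p = 8.48e-07 by limma-voom), and Lmo3, another LIM cofactor, from 125 and 129 to 443 and 556 (1.96, SE 0.11, adjusted p = 2.73e-06 by limma-voom). Nfia and Nfib, nuclear factors also made by progenitors, fell from 333 and 336 to 125 and 128 CPM (-1.40, SE 0.09, adjusted p = 4.54e-06 by limma-voom) and from 802 and 724 to 454 and 512 CPM (-0.66, SE 0.11, adjusted p = 0.000846 by limma-voom), and the call of Nfib was lost with scaling by total counts (log2 fold change -0.13). Tbr1, which specifies corticothalamic neurons and was named after its value was seen, was at 79.4 and 96.2 CPM at E12.5 and 103 and 73.96 at P0 (-0.03, SE 0.17, adjusted p = 0.904 by limma-voom).

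Axonal and cytoskeletal genes rose, and they carried the largest footprint share of the neuronal lists. Of 40 measured, out of 41 in the table, 35 rose and 1 fell, with a median of 1.68, and they took 5.90% and 5.04% of non-histone footprints at E12.5 and 10.1% and 11.9% at P0. The 87.5% called higher stood beside 30.1% of all genes. Mapt, the microtubule-associated protein tau, was read at 153 and 151 CPM at E12.5 and 2174 and 2527 at P0 (log2 change of 3.94 with an SE of 0.11, adjusted p = 3.74e-07 by limma-voom). Nefl, the light neurofilament subunit, rose from 1.05 and 0.935 to 23.6 and 27.7 CPM (4.70, SE 0.23, adjusted p = 1.43e-06 by limma-voom). Kif21a, a kinesin of growing axons and the member that fell, went from 54.5 and 52.6 to 18.8 and 28.2 CPM (-1.17, SE 0.17, adjusted p = 0.000514 by limma-voom).

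Genes for both sides of the synapse rose. Of 45 presynaptic genes 41 rose and 2 fell (median 2.58), and of 44 postsynaptic genes 38 rose and 4 fell (median 1.94), against 30.1% of all genes called higher. Rims1, an active zone scaffold, was read at 0.935 and 0.673 CPM at E12.5 and 18.7 and 23.6 at P0 (log2 change of 4.77 with an SE of 0.33, adjusted p = 6.8e-06 by limma-voom), and Rph3a, a Rab effector on vesicles, rose from 3.19 and 2.28 to 54.6 and 51.3 CPM (4.31, SE 0.17, adjusted p = 5.74e-07 by limma-voom). Slc17a6, the vesicular glutamate transporter VGLUT2, fell from 12.9 and 14.4 to 6.2 and 6.23 CPM (-1.14, SE 0.15, adjusted p = 0.000306 by limma-voom), and Syt11, a synaptotagmin that does not bind calcium, from 147 and 132 to 70.6 and 72.1 CPM (-0.96, SE 0.11, adjusted p = 0.00011 by limma-voom). The presynaptic list was therefore not uniform, with Slc17a6 and Syt11 below their E12.5 levels. On the postsynaptic side, Camk2b, the beta subunit of calcium/calmodulin kinase II, rose from 36.5 and 42.6 to 1154 and 1012 CPM (4.78, SE 0.12, adjusted p = 3.74e-07 by limma-voom), beside Nrgn described above. Dlg1, the scaffold SAP97, which also sits at the polarised junctions of progenitors, fell from 42.6 and 40.2 to 10.9 and 19.2 CPM (-1.42, SE 0.21, adjusted p = 0.000539 by limma-voom), and Sorbs2, an actin adaptor, from 152 and 150.04 to 46.2 and 53.6 CPM (-1.59, SE 0.10, adjusted p = 4.9e-06 by limma-voom).

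Receptors and channels rose with the synapse genes. Over all genes, 30.1% were called higher and 32% lower. Of 25 glutamate receptor genes measured, out of 27 in the table, 21 rose and 1 fell, with a median of 2.07. Grm3, a metabotropic receptor, was read at 0.275 and 0.262 CPM at E12.5 and 9.46 and 9.81 at P0 (log2 change of 5.07 with an SE of 0.34, adjusted p = 5.84e-06 by limma-voom), and Grm7, a presynaptic metabotropic receptor, rose from 0.550 and 0.337 to 8.38 and 7.35 CPM (4.17, SE 0.39, adjusted p = 3.76e-05 by limma-voom). Grik2, a kainate receptor subunit, fell from 5.94 and 6.10 to 3.15 and 3.79 CPM (-0.73, SE 0.14, adjusted p = 0.00229 by limma-voom). Of 15 genes for GABA receptors and chloride transport 14 rose and 1 fell, with a median of 2.48. Slc12a5, or KCC2, which exports chloride and makes GABA inhibitory, rose from 1.54 and 0.374 to 20.6 and 13.6 CPM (4.56, SE 0.50, adjusted p = 8.61e-05 by limma-voom). The chloride importer Slc12a2, or NKCC1, fell from 7.70 and 6.73 to 2.07 and 1.96 CPM (-1.84, SE 0.17, adjusted p = 3.86e-05 by limma-voom), and was the member of the list that fell. Gabra5, a receptor subunit outside the synapse, rose from 0.330 and 0.598 to 13.9 and 13.7 CPM (4.79, SE 0.38, adjusted p = 1.57e-05 by limma-voom). Markers of interneurons, given with the other cells, were higher at P0 as well, with summed CPM of 75.4 and 90.2 at E12.5 and 385 and 329.7 at P0, and their part in these values was not tested. Of 44 voltage-gated channel genes measured, out of 48 in the table, 33 rose and 1 fell (median 1.81). Kcnip2 and Kcnip4, subunits of Kv4 potassium channels, rose from 0.495 and 0.598 to 14.5 and 15.01 CPM (4.68, SE 0.49, adjusted p = 6.82e-05 by limma-voom) and from 1.60 and 1.53 to 16.4 and 31.95 CPM (3.94, SE 0.41, adjusted p = 6.52e-05 by limma-voom). Cacna2d2, a calcium channel subunit, fell from 9.90 and 10.3 to 6.53 and 5.92 CPM (-0.73, SE 0.13, adjusted p = 0.00123 by limma-voom). The calls of Grik2 and Cacna2d2 were lost with scaling by total counts (log2 fold changes -0.21 and -0.20).

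Genes for the ribosome fell in small steps. Of 79 cytosolic ribosomal protein genes 69 fell and none rose, with a median log2 fold change of -0.72 and quartiles of -0.85 to -0.52. Together they took 10.5% and 10.4% of non-histone footprints at E12.5 and 7.08% and 6.97% at P0. In the fit of the 4 end-stage libraries alone 43 were called lower, and with scaling by total counts 16 were called lower and 4 higher, with a median of -0.19. The 87.3% called lower with all libraries stood beside 32% of all genes. Rps12, a small subunit protein, fell from 243 and 231 to 91.4 and 91.8 CPM (log2 change of -1.37 with an SE of 0.09, adjusted p = 5.66e-06 by limma-voom), and Rps4x, another, from 449 and 414 to 158 and 221 CPM (-1.20, SE 0.15, adjusted p = 0.000175 by limma-voom). Ribosomal protein genes have many processed pseudogenes, with which reads may be shared.

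Other parts of the protein synthesis machinery changed in small steps whose direction depended on the scaling. Of 66 ribosome biogenesis factors 31 fell and 2 rose (median -0.34, and 0.19 with total counts), with 6 higher without P0 replicate 1 and 12 lower in the fit of the 4 end-stage libraries alone. With total counts 22 were called higher and 9 lower. With all libraries, the 47.0% called lower and 3.03% called higher stood beside 32% and 30.1% of all genes. Npm1, nucleophosmin of the nucleolus, fell from 2556 and 2179 to 596 and 1139 CPM (log2 change of -1.53 with an SE of 0.25, adjusted p = 0.00094 by limma-voom), and Dkc1, the pseudouridine synthase dyskerin, from 25.1 and 23.5 to 6.09 and 8.90 CPM (-1.63, SE 0.17, adjusted p = 5.75e-05 by limma-voom). Gnl3l, a nucleolar GTPase, rose from 55.9 and 53.6 to 111 and 110.5 CPM (1.014, SE 0.11, adjusted p = 7.06e-05 by limma-voom), while the call for Bysl, a factor of the small subunit at 9.24 and 11.03 CPM at E12.5 and 15.6 and 12.6 at P0 (0.43, SE 0.14, adjusted p = 0.0239 by limma-voom), was lost without P0 replicate 1 (log2 fold change 0.31) and without E12.5 replicate 1 (0.31). Of 52 translation factors 19 fell and 4 rose (median -0.36, and 0.17 with total counts), and 30 fell without P0 replicate 2. The 36.5% that fell stood beside 32% of all genes. Called in the fit of the 4 end-stage libraries alone were 11 lower and 3 higher, and with total counts 4 lower and 17 higher. Eif4ebp1, which blocks the cap-binding protein eIF4E, fell from 6.88 and 7.14 to 3.26 and 2.39 CPM (-1.44, SE 0.18, adjusted p = 0.000176 by limma-voom), and Pabpc1, the poly(A)-binding protein, from 50.9 and 52.2 to 11.96 and 21.3 CPM (-1.60, SE 0.21, adjusted p = 0.000242 by limma-voom). In the other direction, Eef1a2, the elongation factor isoform of neurons and muscle, rose from 6.44 and 6.28 to 81.6 and 87.96 CPM (3.74, SE 0.10, adjusted p = 3.74e-07 by limma-voom) and Eif4a2, a helicase of initiation, from 513 and 477 to 1874 and 1833 CPM (1.91, SE 0.08, adjusted p = 9.23e-07 by limma-voom). Both are isoforms with a paralogue that is described with the pairs.

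Enzymes that charge tRNA were called in both directions at shares near those of all genes. Of 20 aminoacyl-tRNA synthetase genes 8 fell and 4 rose, with a median of -0.20, and 0.33 with total counts. These shares, 40% lower and 20% higher, stood beside 32% and 30.1% of all genes, and with total counts 3 were lower and 10 higher. Without P0 replicate 1 there were 7 that rose, and without P0 replicate 2 there were 2, as in the fit of the 4 end-stage libraries alone, where 4 fell. Yars, for tyrosine, was read at 22.9 and 22.5 CPM at E12.5 and 38.9 and 37.6 at P0 (log2 change of 0.75 with an SE of 0.11, adjusted p = 0.000415 by limma-voom), and Hars, for histidine, rose from 26.9 and 27.8 to 38.5 and 40.4 CPM (0.53, SE 0.09, adjusted p = 0.00115 by limma-voom). Vars, for valine, fell from 15.2 and 16.6 to 10.7 and 6.59 CPM (-1.03, SE 0.19, adjusted p = 0.00183 by limma-voom), and Qars, for glutamine, from 59.3 and 75.5 to 40.6 and 28.1 CPM (-1.02, SE 0.19, adjusted p = 0.00156 by limma-voom).

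Subunits of the TRiC chaperonin, which folds actin and tubulin, and of the proteasome, which degrades ubiquitinated proteins, were near the level of all genes. Of 7 TRiC genes 2 fell (median -0.25), none without P0 replicate 1 and 4 without P0 replicate 2. Cct8 was at 405 and 375 CPM at E12.5 and 241 and 349 at P0 (log2 change of -0.42 with an SE of 0.16, adjusted p = 0.0417 by limma-voom) and Cct3 at 425 and 416 before and 292 and 353 after (-0.39, SE 0.11, adjusted p = 0.0124 by limma-voom), and with total counts their values were 0.11 and 0.14. Of 31 proteasome genes 7 fell and none rose (median -0.16), 3 without P0 replicate 1 and 13 without P0 replicate 2. The 22.6% of proteasome genes and 28.6% of TRiC genes that fell stood beside 32% of all genes. In the fit of the 4 end-stage libraries alone no gene of either list was called, and with total counts 17 proteasome and 3 TRiC genes were called higher and none lower. Psmc2, an ATPase of the regulatory particle, was at 43.3 and 44.9 CPM at E12.5 and 23.3 and 33.2 at P0 (-0.63, SE 0.17, adjusted p = 0.0116 by limma-voom), and Psmc6, another, at 108 and 102 before and 56.99 and 84.6 after (-0.57, SE 0.17, adjusted p = 0.0158 by limma-voom). Each of these 4 calls hung on single libraries, and on the scaling, as none was kept with total counts. Cct8 lost its call when any single library but P0 replicate 2 was left out (log2 fold changes -0.16 to -0.48), and Cct3 without P0 replicate 1 (-0.25) or E12.5 replicate 1 (-0.37). Psmc2 lost it without E12.5 replicate 2 (-0.60), and Psmc6 without P0 replicate 1 (-0.31) or E12.5 replicate 1 (-0.53). The median of both lists was above 0 with total counts, 0.28 for TRiC and 0.37 for the proteasome.

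Splicing proteins fell. Of 53 measured 43 fell and 1 rose, with a median log2 fold change of -0.95, with 29 lower in the fit of the 4 end-stage libraries alone and 23 lower and 3 higher with total counts. The 81.1% called lower with all libraries stood beside 32% of all genes. Hnrnpa3, an RNA-binding protein of the hnRNP family, was read at 4241 and 2752 CPM at E12.5 and 619 and 1397 at P0 (log2 change of -1.89 with an SE of 0.34, adjusted p = 0.00142 by limma-voom), and Snrpe, a core protein of spliceosomal snRNPs, fell from 955 and 750.3 to 158 and 363 CPM (-1.81, SE 0.32, adjusted p = 0.00144 by limma-voom). In both genes P0 replicate 2 was more than 2-fold above P0 replicate 1 and below both E12.5 libraries. Prpf8, the core of the spliceosome, rose from 21.1 and 23.5 to 34.3 and 33.98 CPM (0.61, SE 0.10, adjusted p = 0.00104 by limma-voom).

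Chromatin regulators changed in both directions, with a balance that depended on the scaling. Of 54 measured 29 fell and 10 rose, with a median of -0.69, but with total counts 16 were called lower and 21 higher, with a median of -0.17. The median was -0.43 without P0 replicate 1. With all libraries, the 53.7% called lower and 18.5% called higher stood beside 32% and 30.1% of all genes. Hmgb2, a DNA-bending protein of dividing cells, was read at 899.9 and 782 CPM at E12.5 and 74.3 and 69.02 at P0 (log2 change of -3.55 with an SE of 0.11, adjusted p = 4.05e-07 by limma-voom), and Cbx2, a Polycomb chromodomain protein, fell from 8.75 and 9.35 to 0.544 and 0.835 CPM (-3.503, SE 0.26, adjusted p = 1.05e-05 by limma-voom). Chd5, a neuronal chromatin remodeller, rose from 0.880 and 0.972 to 19.4 and 21.6 CPM (4.44, SE 0.22, adjusted p = 1.42e-06 by limma-voom), and Actl6b, an actin-related subunit of the neuronal BAF complex, from 17.4 and 22.4 to 139 and 106 CPM (2.59, SE 0.16, adjusted p = 3.79e-06 by limma-voom). Oncofetal RNA-binding proteins, which are made in early development, had 3 of 5 genes in the table measured, and all 3 fell. Igf2bp1, which stabilises mRNAs in progenitors, fell from 20.1 and 21.7 to 0.761 and 0.859 CPM (-4.602, SE 0.22, adjusted p = 1.28e-06 by limma-voom) and Igf2bp2 from 32.9 and 36.7 to 2.94 and 2.17 CPM (-3.89, SE 0.17, adjusted p = 8.62e-07 by limma-voom).

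Metabolic genes did not move as blocks. Oxidative phosphorylation genes were called higher in 10.5% and lower in 6.58%, below the 30.1% and 32% of all genes. Of 76 oxidative phosphorylation genes 8 rose and 5 fell, with a median of 0.08, 19 rose and 12 fell without P0 replicate 2, and with total counts 58 were called higher and none lower. Atp5g1, a subunit of the proton ring of ATP synthase, was read at 358 and 436 CPM at E12.5 and 937 and 609.9 at P0 (log2 change of 0.95 with an SE of 0.19, adjusted p = 0.00237 by limma-voom), and Ndufv3, of complex I, rose from 98.1 and 102 to 219 and 144 CPM (0.81, SE 0.18, adjusted p = 0.00446 by limma-voom). Ndufc2, of complex I, was at 366 and 326 CPM at E12.5 and 206 and 274 at P0 (-0.54, SE 0.16, adjusted p = 0.0167 by limma-voom) and Sdha, of complex II, at 36.1 and 36.9 before and 22.1 and 29.3 after (-0.49, SE 0.13, adjusted p = 0.0113 by limma-voom), and both calls were lost without P0 replicate 1 (-0.34 and -0.32). Ndufc2 also lost it without E12.5 replicate 1 (-0.45) and Sdha without E12.5 replicate 2 (-0.47). Of 17 glycolysis genes 11 fell and 4 rose (median -0.56), and with total counts 6 were called lower and 6 higher (median -0.03). The hexokinases parted, as Hk2, the inducible form, fell from 14.4 and 15.52 to 1.52 and 1.46 CPM (-3.33, SE 0.19, adjusted p = 2.62e-06 by limma-voom) and Hk1, the form of adult brain, rose from 29.9 and 26.8 to 146 and 151 CPM (2.40, SE 0.10, adjusted p = 7.07e-07 by limma-voom). Pkm, pyruvate kinase, fell from 951 and 1073 to 417 and 393 CPM (-1.32, SE 0.11, adjusted p = 1.63e-05 by limma-voom), and Eno2, the neuronal enolase, rose from 28.3 and 33.96 to 324 and 234 CPM (3.14, SE 0.16, adjusted p = 1.71e-06 by limma-voom).

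Of 20 cholesterol synthesis genes 8 rose and 7 fell, with a median of -0.04, and with total counts 12 were called higher and 3 lower. The 40% higher and 35% lower stood beside 30.1% and 32% of all genes. Mvd, the decarboxylase of the mevalonate pathway, rose from 11.8 and 16.9 to 30.3 and 24.6 CPM (log2 change of 0.91 with an SE of 0.18, adjusted p = 0.00267 by limma-voom). Mvk, its kinase, rose from 19.9 and 18.3 to 52.3 and 28.3 CPM (0.96, SE 0.24, adjusted p = 0.00873 by limma-voom), but lost its call without E12.5 replicate 2 (log2 fold change 0.90). Msmo1, an enzyme of the later sterol steps, fell from 38.4 and 33.7 to 14.8 and 17.7 CPM (-1.12, SE 0.16, adjusted p = 0.000379 by limma-voom). Of 78 mitochondrial ribosomal protein genes 18 fell and 5 rose (median -0.23, and 0.30 with total counts), with 25 lower and 3 higher without P0 replicate 1, 27 lower and 11 higher without P0 replicate 2, and 3 lower and 27 higher with total counts. The 23.1% lower and 6.41% higher with all libraries were below the 32% and 30.1% of all genes. Mrpl24 fell from 135 and 125 to 54.1 and 76.3 CPM (-0.996, SE 0.15, adjusted p = 0.000632 by limma-voom) and Mrps14 from 180.2 and 193 to 94.95 and 97.3 CPM (-0.96, SE 0.09, adjusted p = 4.38e-05 by limma-voom). Mrpl43, at 24.3 and 27.7 CPM at E12.5 and 78.5 and 32 at P0 (0.88, SE 0.34, adjusted p = 0.0492 by limma-voom), shows how far the P0 libraries could part, and its call was lost when any single library but P0 replicate 2 was left out (log2 fold changes 0.30 to 0.98). Mrps26 rose from 9.35 and 11.3 to 16.1 and 14.4 CPM (0.54, SE 0.13, adjusted p = 0.00732 by limma-voom), a call lost without E12.5 replicate 1 (0.42).

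Activity-induced genes went both ways. Immediate early genes were called higher in 54.5% and lower in 36.4%, beside 30.1% and 32% of all genes. Of 11 immediate early genes measured, out of 16 in the table, 6 rose and 4 fell, with a median of 1.08, and without P0 replicate 2 there were 3 in each direction. Nr4a3, an orphan nuclear receptor, was read at 2.15 and 2.51 CPM at E12.5 and 15.99 and 15.2 at P0 (log2 change of 2.72 with an SE of 0.17, adjusted p = 4.54e-06 by limma-voom). Jun, a subunit of AP-1, fell from 44.8 and 51.3 to 18.7 and 15.3 CPM (-1.53, SE 0.16, adjusted p = 7.08e-05 by limma-voom) and Ier2, a nuclear protein induced by growth factors, from 18.4 and 22.4 to 8.70 and 7.14 CPM (-1.41, SE 0.16, adjusted p = 0.000124 by limma-voom). Of 18 Atf4 targets and serine synthesis genes, which answer amino acid shortage, 10 fell and 2 rose (median -0.63). The median was -0.88 with 12 lower without P0 replicate 1, -0.27 with 8 lower without P0 replicate 2, and -0.11 with 6 lower with total counts. Shmt1 and Psat1, enzymes of serine and glycine metabolism, fell from 12.9 and 15.8 to 3.70 and 2.98 CPM (-2.18, SE 0.18, adjusted p = 2.07e-05 by limma-voom) and from 289.7 and 306 to 73.4 and 71.6 CPM (-2.04, SE 0.09, adjusted p = 9.11e-07 by limma-voom). Asns, asparagine synthetase, rose from 16.3 and 17.2 to 52.5 and 52.5 CPM (1.65, SE 0.11, adjusted p = 4.93e-06 by limma-voom).

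Markers of other cells in the tissue changed too. Over all genes, 30.1% were called higher and 32% lower. Astrocyte markers rose in 12 of 15 genes and fell in 2 (median 1.12). Gfap, the astrocytic intermediate filament, was read at 0.110 and 0.150 CPM at E12.5 and 10.4 and 12.3 at P0 (log2 change of 6.23 with an SE of 0.68, adjusted p = 8.74e-05 by limma-voom), and Aldh1l1, a folate enzyme of astrocytes, rose from 1.16 and 0.524 to 31.5 and 29.5 CPM (5.36, SE 0.31, adjusted p = 2.91e-06 by limma-voom). Gja1, connexin 43, which radial glia also make, fell from 41.7 and 35.6 to 1.74 and 2.08 CPM (-4.25, SE 0.18, adjusted p = 7.39e-07 by limma-voom). Of 8 oligodendrocyte lineage genes measured, out of 14 in the table, 7 rose and none fell (median 2.04), among them Olig2, which rose from 0.550 and 0.673 to 21.4 and 10.2 CPM (4.399, SE 0.62, adjusted p = 0.000385 by limma-voom). Markers of interneurons and the ganglionic eminence, where they are born, rose in 13 of 16 genes and fell in 1 (median 2.41). Gad1, the GABA-synthesising enzyme, rose from 1.65 and 2.21 to 51.1 and 54.1 CPM (4.74, SE 0.18, adjusted p = 5.74e-07 by limma-voom) and Npy, a neuropeptide of interneurons, from 2.59 and 3.59 to 82.1 and 84.2 CPM (4.73, SE 0.16, adjusted p = 4.84e-07 by limma-voom). Of 7 striatal genes measured, out of 10 in the table, 4 rose and 1 fell, and Ppp1r1b, or DARPP-32, rose from 13.97 and 11.5 to 36.3 and 33.5 CPM (1.46, SE 0.13, adjusted p = 2.9e-05 by limma-voom). Whether more such cells or more tissue of neighbouring regions entered the P0 pools was not tested.

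Markers of blood, endothelium, meninges and tissue beside the neocortex fell. All 9 red blood cell genes measured, out of 11 in the table, fell (median -3.11), with summed CPM of 11214 and 11607 at E12.5 and 1862 and 1439 at P0. All 10 genes of meningeal fibroblasts fell (median -4.34, summed CPM 371 and 386 at E12.5 and 26.5 and 17.1 at P0), among them Lum, a matrix proteoglycan, from 15.2 and 11.8 to 0 and 0.239 CPM (log2 change of -6.22 with an SE of 1.04, adjusted p = 0.000952 by limma-voom). Of 8 choroid plexus genes measured, out of 10 in the table, 6 fell (median -4.08, summed CPM 383 and 299.9 at E12.5 and 17.7 and 18.02 at P0). Ttr, transthyretin of the choroid plexus, fell from 309 and 258 to 13.4 and 6.66 CPM (-5.04, SE 0.26, adjusted p = 1.62e-06 by limma-voom). Endothelial genes fell in 12 of 14 measured, out of 15 in the table, and rose in 1 (median -2.56, summed CPM 119.7 and 127 at E12.5 and 32.5 and 27.6 at P0). Slc2a1, the glucose transporter of brain vessels, which progenitors also use, fell from 50.1 and 53.9 to 6.09 and 3.60 CPM (-3.62, SE 0.19, adjusted p = 1.85e-06 by limma-voom) and Pecam1, an adhesion molecule between endothelial cells, from 7.98 and 9.35 to 1.41 and 1.55 CPM (-2.50, SE 0.23, adjusted p = 3.18e-05 by limma-voom). Ly6c1 rose from 2.86 and 1.53 to 5.33 and 7.09 CPM (1.68, SE 0.43, adjusted p = 0.00882 by limma-voom), a call lost without P0 replicate 2 (log2 fold change 1.43) and without E12.5 replicate 2 (1.17). Of 8 pericyte genes 5 fell and 1 rose (median -1.53), with 3 lower without P0 replicate 2 and 3 higher without P0 replicate 1. The summed CPM of the pericyte list did not fall, at 125.0 and 122.6 at E12.5 and 123.5 and 232.8 at P0. The list holds Anpep, a gene with the pattern of the intestinal footprints. The member that rose was Rgs5, a G protein regulator, from 24.6 and 26.3 to 63.7 and 47.6 CPM (1.09, SE 0.17, adjusted p = 0.000651 by limma-voom). Microglial genes were near the level of all genes, with 2 lower of 13 measured, out of 15 in the table, and a median of -0.15, which was 0.40 with total counts and 0.05 without P0 replicate 2. The 15.4% of microglial genes called lower stood beside 32% of all genes.

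Among the earliest neurons and regions at the cortical border, Cajal-Retzius and subplate genes were mixed, with 6 lower and 3 higher of 11 measured, out of 12 in the table (median -0.71, or -0.11 from P0 replicate 1 and -0.81 from P0 replicate 2), with 4 lower and 4 higher without P0 replicate 2 and 5 lower and 5 higher with total counts. With all libraries the 54.5% lower and 27.3% higher stood beside 32% and 30.1% of all genes. Nr4a2, or Nurr1, of subplate neurons, rose from 10.01 and 10.7 to 68.8 and 75.01 CPM (log2 change of 2.80 with an SE of 0.12, adjusted p = 9.29e-07 by limma-voom), as did Calb2, calretinin, from 9.96 and 9.46 to 16.5 and 20.7 CPM (0.96, SE 0.18, adjusted p = 0.00163 by limma-voom). Nxph4, a neurexin ligand of the subplate, fell from 14.4 and 16.3 to 2.39 and 1.38 CPM (-3.29, SE 0.20, adjusted p = 3.29e-06 by limma-voom) and Ebf3, of Cajal-Retzius cells, from 12.1 and 15.52 to 2.07 and 2.55 CPM (-2.49, SE 0.19, adjusted p = 1.02e-05 by limma-voom). Genes of the cortical hem, hippocampus and thalamus fell in 7 of 9 measured, out of 11 in the table (median -4.26, summed CPM 123 and 115 at E12.5 and 18.7 and 23.6 at P0). The median was -4.35 without P0 replicate 1 and -2.87, with 5 lower, without P0 replicate 2. Lhx9, a LIM factor of thalamus and hem, fell from 60.8 and 60.5 to 1.31 and 1.22 CPM (-5.60, SE 0.28, adjusted p = 1.5e-06 by limma-voom), and Tcf7l2, a Wnt effector of the thalamus, from 33.4 and 27.6 to 7.94 and 10.2 CPM (-1.69, SE 0.16, adjusted p = 3.21e-05 by limma-voom). Whether the pools of the stages held different amounts of such neighbouring tissue was not tested.

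Related genes, an earlier and a later or a broader and a more neuronal form, were followed as 28 pairs, as the log2 ratio of footprints of the second gene to those of the first. The ratio was higher in both P0 libraries than in both E12.5 libraries for 20 pairs, lower for 3, and overlapped for 5. Of single genes 36.4% lay above and 38.8% below in CPM, which is another measure. Ratios of other gene pairs were not computed, so no share over all pairs stands beside these counts. In 10 pairs the first gene fell and the second rose. Of 4 pairs from the BAF chromatin remodelling complex, 3 had a higher ratio at P0. The ratio of Actl6b to Actl6a was -2.59 and -2.26 at E12.5 and 3.41 and 2.76 at P0, that of Ss18l1 to Ss18 went from -3.05 and -2.90 to 1.40 and 0.82, and that of Dpf1 to Phf10 from 0.03 and 0.47 to 3.05 and 2.63. The ratio of Ezh1 to Ezh2, methyltransferases of Polycomb complex 2, was -6.32 and -5.98 at E12.5 and -1.36 and -2.16 at P0. In the chloride transporters, Slc12a5 to Slc12a2 was at -2.30 and -4.10 and then 3.28 and 2.78, a change of 6.24. The stages lay apart in these pairs, and the sign of the ratio turned in all but the pairs of Dpf1 and Ezh1.

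Pairs of the translation machinery, metabolism and cytoskeleton moved likewise. The ratio of Eef1a2 to Eef1a1, elongation factors that bring tRNA to the ribosome, was -8.25 and -8.36 at E12.5 and -3.72 and -3.95 at P0. Eif4a2 to Eif4a1 went from -1.14 and -1.37 to 0.61 and 0.74, with only Eif4a2 called. For the enolases Eno2 to Eno1 it went from -4.85 and -4.801 to -0.37 and -0.85. Vim, of progenitors, and Nefl, of axons, are intermediate filaments, and Nefl to Vim went from -9.32 and -9.64 to -1.999 and -1.82. Kif5a, an axonal kinesin, to Kif11, a spindle kinesin, went from -2.18 and -1.89 to 4.68 and 4.42. Elavl3 to Elavl1, RNA-binding proteins of neurons and of all cells, went from -1.32 and -1.09 to 1.42 and 0.74. The largest change of all 28 was that of Nefl to Vim, at 7.57 on the log2 scale. Ptbp2 to Ptbp1, splicing repressors of new neurons and of progenitors, went from 0.36 and 0.11 to 2.04 and 2.90, although both genes fell. In the globins Hbb-bt, adult, to Hbb-y, embryonic, went from 0.81 and 0.92 to 6.25 and 6.202, again with both genes lower. The ratio of Aldoc to Aldoa was lower at P0, -0.45 and -0.53 at E12.5 and -1.63 and -1.29 at P0, as was that of Marcks to Marcksl1, from -0.40 and -0.37 to -1.10 and -0.91, and by a small margin that of Hnrnpa2b1 to Hnrnpa1, from 1.90 and 1.88 to 1.73 and 1.87. Ratios overlapped for the NMDA receptor subunits Grin2a and Grin2d, the kinases Camk2a and Camk2g, the BAF subunits Smarcd3 and Smarcd1, the thymosins Tmsb10 and Tmsb4x and the methyltransferases Dnmt3a and Dnmt1.

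The change between the end points was reached by different paths. Of the 4058 genes called higher 1720 (42.4%) had a higher stage mean at each of the 4 steps, and of the 4313 called lower 1620 (37.6%) had a lower one at each. Against E12.5, the median of genes called higher was 0.24 log2 units up at E14, 0.79 up at E15.5, 1.02 up at E17 and finally 1.34 up. Those called lower lay at -0.18, -0.74, -0.85 and -1.21. Both medians at E15.5 were past the midpoint of the whole difference, in genes chosen by their end points. The highest stage mean came before P0 in 908 of the genes called higher, and the lowest came before P0 in 1101 of those called lower. A further property of 960 genes called lower was a stage mean between the end points above that at E12.5.

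Gene lists differed in their course. The median of DNA replication genes relative to E12.5 was -0.44 at E14, then -1.39 at E15.5, -2.05 one stage later and -2.72 in newborns. Intermediate progenitor genes were at 0.12 at E14, -1.08 at E15.5, -1.40 one stage later and -2.86 in newborns, so their difference came after E14. Presynaptic genes were at 0.56, 1.65, 2.02 and 2.58, and upper-layer genes at 0.54, 1.66, 2.06 and 2.10. Choroid plexus genes were above E12.5 at E14, at 1.36, and at -4.61 at P0. Ribosomal protein genes were at -0.11, -0.54, -0.59 and -0.72 at the 4 later stages.

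**Figure D4:**
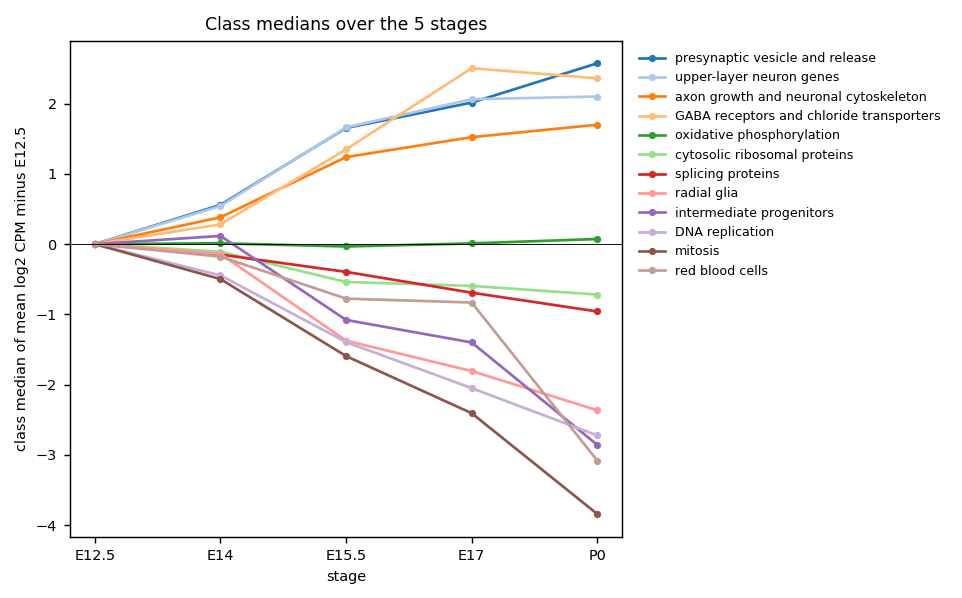
Median log2 CPM relative to E12.5 of gene lists over the 5 stages in order of age, 1 line a list. Lists of dividing cells end below 0 and neuronal lists above it at P0, at -2.72 for DNA replication and 2.58 for presynaptic genes.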

How the data were processed

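The authors prepared 80S monosomes from neocortex lysates digested with RNase T1 and RNase A, without cycloheximide, removed duplicate and contaminant reads, and aligned footprints with STAR (2.7.0 in the submitters' processing notes) to GENCODE coding transcripts, keeping reads that map to several places. Raw footprint counts, whole numbers for each gene, make up the deposited table. Duplicates were removed while the unique molecular identifiers (tags at the read ends) were still on the reads. Such removal can still lower the counts of abundant mRNAs, which was not tested. Shared reads can blur close paralogues. How reads were assigned to genes in this table is not given in the sources used here. The table has no column other than the 10 libraries.

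Library groups came from the sample labels. Genes with 32 or more footprints summed over the libraries of at least 1 stage were kept. Following the study's methods, limma-voom (limma 3.58.1, R 4.3.3) was run with TMM factors (edgeR 4.0.16) on all 10 libraries with 1 coefficient per stage, with 5 residual degrees of freedom, and P0 was contrasted with E12.5. Calls needed a Benjamini-Hochberg adjusted p under 0.05 over all genes kept and a difference of 25%. CPM are counts per fixed number of TMM-scaled library counts, fold changes are on the log2 scale of voom with 0.5 counts added, and depth ranged from 7544404 to 36129988 counts. Counting intervals and floors (3 counts) cover counting error only. The scripts were tested on simulated data. Symbols matched 22274 of 22373 gene IDs. Medians per library use log2 CPM, medians of lists the fitted values.

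Genes named in the text were the followed markers, the 8 steepest rises and 8 steepest falls among called genes with a mean of 100 counts over the 4 libraries and no overlap, the 5 largest rises and 5 largest falls in CPM, both without replication-dependent histone genes, and up to 2 rises and 2 falls per list; Tbr1, the genes of the pairs, the intestinal genes and the promoters shown stand outside this rule. Some genes that the rule names are not reported here. Members and lists were chosen with earlier results of these data known. Alternatives tried were other scalings, filters, tools (edgeR quasi-likelihood, DESeq2 1.42.0), weights, blocks and sets of libraries.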

Additional observations from a re-analysis of the deposited data

How the results depend on the processing

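Of 136 genes named by the rule, 115 had a value under every alternative, and 96 of these had the same direction and side of the threshold each time. The other 21 had too few footprints for the 32-footprint minimum at both end stages, and 18 of them were the same under the alternatives run. With all 10 libraries, edgeR, DESeq2, DESeq2 size factors, scaling without histone genes, no filter, the 32-footprint minimum at both end stages and quality weights left the counts of calls within 1.5 times. The fewest calls among these settings were the 6249 with quality weights. With only the 4 end-stage libraries, DESeq2 called 5426 genes, 2563 of them lower, and edgeR 2766 lower. Scaling by total counts gave 6446 higher and 2506 lower, and a minimum of 2-fold gave 5218 calls, 2607 higher and 2611 lower. Leaving out 1 library gave 6955 to 9248 calls, 3307 to 4740 higher and 3648 to 4508 lower, list medians above the median of all genes for 14 to 16 of 41 lists, and 23 to 24 pairs with a raised ratio, against 14 lists and 24 pairs with all libraries.

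With total counts the list median turned positive for ribosome biogenesis (0.19), translation factors (0.17), aminoacyl-tRNA synthetases (0.33), TRiC (0.28), the proteasome (0.37), cholesterol synthesis (0.48), microglia (0.40) and mitochondrial ribosomal proteins (0.30), as did Cct8 (0.11), Cct3 (0.14) and Sdha (0.040). These shifts come from the scaling itself, which moved the median of all genes to 0.51. Other reversals were cholesterol synthesis (from -0.10 to 0.022 over the fits that leave out 1 library, the latter without E12.5 replicate 2), microglia (-0.28 to 0.048 likewise, the latter without P0 replicate 2, and with E12.5 replicate 2 and P0 replicate 1 at the end stages 0.013), and Bcl11b (-0.13 without P0 replicate 1 to 0.56 without P0 replicate 2); the cause was not tested.

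The replicate numbers did not pair the samples: deviations of the replicates from their stage means correlated over 4559 genes at -0.63 between E12.5 and P0 and at -0.37 to -0.11 between E12.5 and the other stages, at -0.04 between E14 and E17, and at 0.21 to 0.43 in the 5 other combinations of later stages. A replicate block called 8017 genes, 7966 of them called without it. Numbers swapped at E12.5, tried after the data were seen like the 4-library fits with edgeR and DESeq2 and the fit with 1 library at each end stage, gave 8580.

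Depth was lowest in P0 replicate 1, which limits genes with few footprints at P0.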
